A study of Mus musculus with 2 samples.

Results

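The DNA replication machinery of mouse embryonic liver is described here through 54 genes, named as the subunits and close partners of the replisome and found by their GENCODE M21 symbols in the gene tables of both libraries. All 54 were present, of 55450 named genes and 21951 protein-coding genes in the tables. The samples were 2 polyA RNA-seq libraries of liver from B6NCrl mouse embryos of mixed sex at 12.5 days of development, without any treatment or genetic change stated in the labels. Replicate 1 was a pool of 120 embryos and replicate 2 a pool of 88 embryos, with 10 ng of RNA and ERCC spike-ins going into each. The study held 1 group, so the comparisons below are between genes, complexes, transcripts and annotations, and no p-values arise.

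Replication begins when the origin recognition complex, CDC6 and CDT1 load the MCM2-7 helicase onto DNA, a step called licensing. DBF4-dependent kinase, CDC45 and GINS then turn the loaded ring into the active helicase, polymerase alpha-primase lays down primers, and polymerases delta and epsilon extend them with the sliding clamp PCNA, which replication factor C loads. The fetal liver at this stage is the main blood-forming organ of the mouse embryo and holds many dividing red cell precursors beside hepatoblasts.

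The libraries held 38293265 expected counts in replicate 1 and 35399872 in replicate 2, which are reads divided among genes by the authors' quantification. All 5 red cell markers and 4 of the 5 hepatoblast markers averaged 100 TPM or more. The highest were Hba-a1 with 44322 and 45373 TPM and Afp with 5250 and 5065 TPM, while the hepatoblast marker Hnf4a had 12.9 and 12.6 TPM. Other cell types were present too. The highest marker of mesenchyme, Col3a1, had 161 TPM in both libraries. That of macrophages, Csf1r, had 17.8 and 16.5 TPM, and that of endothelium, Kdr, 15.6 and 14.0 TPM. All 3 neural markers averaged under 1 TPM, as did 2 of the 3 cardiac markers, and Mki67, made by dividing cells, stood at 90.2 and 98.6 TPM. TPM is a level scaled by transcript length and to a fixed total per library. In bulk tissue, fewer cells that make an RNA and less RNA per cell cannot be told apart, and this holds for every level below. Replicate 1 is given before replicate 2 throughout.

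All 54 members averaged 10 TPM or more, which 32.1% of all protein-coding genes did. Of the members 18 averaged 100 TPM or more, a level that 5.4% of protein-coding genes reached. The members' median was 62.7 TPM in replicate 1 and 64.3 TPM in replicate 2 (mean 63.5 ± 1.1, SD, n = 2), against a median of 14.2 TPM over the 11953 protein-coding genes at 1 TPM or more. These shares describe a list named for its function and were not tested. Together they took 0.501% and 0.497% of all TPM. At the top stood Pcna, Mcm6, Tipin, Mcm7, Rfc2, Top2a, Mcm5 and Mcm2, the 8 members at 200 TPM or more, and at the bottom Mcm8, Gins3 and Pola1, the 3 under 20 TPM. The least counted member, Gins3, still had 729 expected counts in a library.

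**Figure D1:**
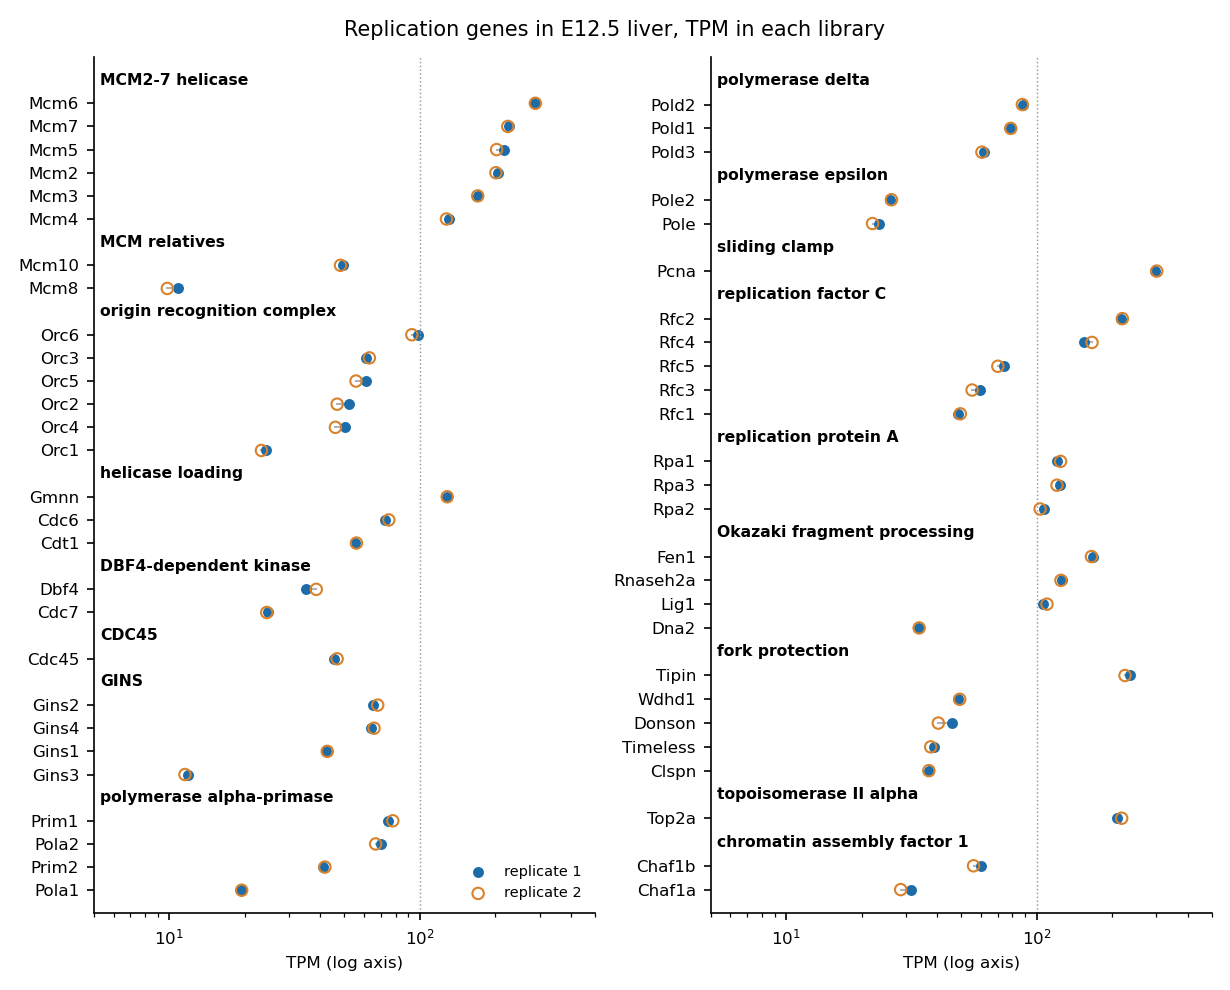
TPM of each of the 54 replication genes (log axis) in replicate 1 (filled) and replicate 2 (open), grouped by complex and sorted within it; the dotted line marks 100 TPM. The MCM2-7 subunits lie from 128 to 289 TPM, the origin recognition complex from 23.3 to 98.0 TPM, and 4 of 28 neighbouring pairs of subunits in a complex overlap between the libraries.

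The 6 subunits of the MCM2-7 helicase, which form the ring that unwinds DNA at the fork, were all above 100 TPM. Mcm6 was the highest, at 288 and 289 TPM. Mcm7 had 227 and 224 TPM, Mcm5 216 and 202 TPM, and Mcm2 204 and 201 TPM. Mcm5 and Mcm2 overlapped between libraries and could not be ordered, while every other neighbouring pair in the ring was apart. Mcm3 followed with 171 and 170.02 TPM, and Mcm4 was the lowest with 130.2 and 128 TPM. The highest subunit was thus 2.24 times the lowest (log2 1.16 ± 0.02, SD, n = 2), although the ring holds 1 copy of each.

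The MCM relatives outside the ring were lower. Mcm10, which helps to start the helicase, had 49.5 and 48.2 TPM. Mcm8, which with its partner Mcm9 forms a helicase used in recombination and repair, had 10.9 and 9.83 TPM and was the lowest of all 54 members. Mcm9 itself, not a member, had 6.55 and 6.59 TPM, so Mcm8 stood at 1.57 times Mcm9 (log2 0.65 ± 0.11, SD, n = 2). The log2 ratio was 1.79 under the older annotation GENCODE M4, where Mcm9 had 3.18 and 3.03 TPM.

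The origin recognition complex, which marks origins and helps to load the MCM ring, was lower than its cargo. Orc6 was its highest subunit with 98.0 and 92.9 TPM. Orc3 had 61.2 and 62.9 TPM and Orc5 61.0 and 55.6 TPM. Orc2 had 52.1 and 46.8 TPM and Orc4 50.04 and 46.0 TPM, and these 2 overlapped. Orc1, the large subunit whose protein is degraded in each cell cycle in human cells, was the lowest with 24.3 and 23.3 TPM. The range from Orc6 to Orc1 was 4.00-fold (log2 2.00 ± 0.01, SD, n = 2). Under the older annotation M4 the log2 range was 1.56, and over protein-coding transcripts alone the range of the complex was 2.56, with Orc4 the lowest. The median of the 6 MCM2-7 subunits was 3.82 times the median of the 6 ORC subunits (log2 1.94 ± 0.06, SD, n = 2), and the lowest MCM2-7 subunit was above the highest ORC subunit in both libraries.

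Of the loading factors, Cdc6, the ATPase that joins ORC to the MCM ring, had 72.6 and 75.2 TPM. Cdt1, the chaperone that brings the ring, had 55.1 and 55.8 TPM. Gmnn encodes geminin, the inhibitor of CDT1 that blocks a second round of licensing, and had 129 TPM in both libraries. The activator was therefore below its inhibitor, with Cdt1 at 0.432 of Gmnn (log2 -1.21 ± 0.01, SD, n = 2).

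Licensing genes are known targets of the E2F transcription factors, which switch on S phase genes. The 4 words TTTCCCGC, TTTCGCGC, TTTGCCGC and TTTGGCGC, common forms of the E2F site, were searched on both strands of RefSeq promoter windows (GRCm38.p6, 250 bases before to 50 bases after the start). Of the licensing genes, 8 held such a word, as did 3.29% of all RefSeq protein-coding genes with a window. Mcm2, Orc2, Orc4, Orc5 and Orc6 had a window without such a word, and Mcm4 and Gmnn had no window. The stretches of the 8 genes are shown because they hold the matches. Each is read 5′ to 3′ on the gene's own strand, with the matched word or 2 overlapping words in capitals.
Mcm3 (chr1:20820277-20820302, minus strand): acttccgtgGCGGGAAAacttgggaa
Mcm3 (chr1:20820263-20820283, minus strand): ttgggaagtTTTGGCGCcaag
Mcm5 (chr8:75109347-75109376, plus strand): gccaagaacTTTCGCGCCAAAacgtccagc
Mcm6 (chr1:128359795-128359824, minus strand): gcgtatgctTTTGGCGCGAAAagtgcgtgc
Mcm6 (chr1:128359736-128359761, minus strand): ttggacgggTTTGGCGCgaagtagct
Mcm7 (chr5:138172032-138172057, minus strand): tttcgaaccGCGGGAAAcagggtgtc
Mcm7 (chr5:138171851-138171876, minus strand): gtgacgacgTTTCGCGCcaatttcgg
Orc1 (chr4:108579418-108579443, plus strand): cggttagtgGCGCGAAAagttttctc
Orc3 (chr4:34614967-34614992, minus strand): atgcctcccTTTCCCGCacgccccgc
Cdc6 (chr11:98908004-98908029, plus strand): cggtggagaGCGGGAAAtcgcctggg
Cdt1 (chr8:122568038-122568063, plus strand): aactaccttTTTGGCGCcatggcgca
In Mcm5 and Mcm6 a forward and a reverse word share bases, so that the run reads as an E2F word from either side. The Mcm5 run began 153 bases before the start and the upstream Mcm6 run 110 bases before it, whereas both Mcm3 words lay after the start. The second Mcm7 word shares bases with a CCAAT box, the only such overlap among the 23 matches.

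Over all members, a window was found for 45, and 17 of these held an E2F word, against 3.29% of the 17491 RefSeq protein-coding genes with a window and 2.26% of all 32851 windows. The others of the 17 were Mcm8, Gins3, Pola1, Pold1, Pold3, Pole2, Rfc3, Lig1 and Clspn. Among the 44 other nuclear replication genes with a window, 7 held a word. Of the 23 matches, 16 began within 100 bases of the start and 11 lay after it. Gmnn, Mcm4, Gins1, Gins2, Gins4, Prim2, Pole, Rfc2 and Tipin had no entry. A match is a stretch of letters and does not show binding.

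**Figure D2:**
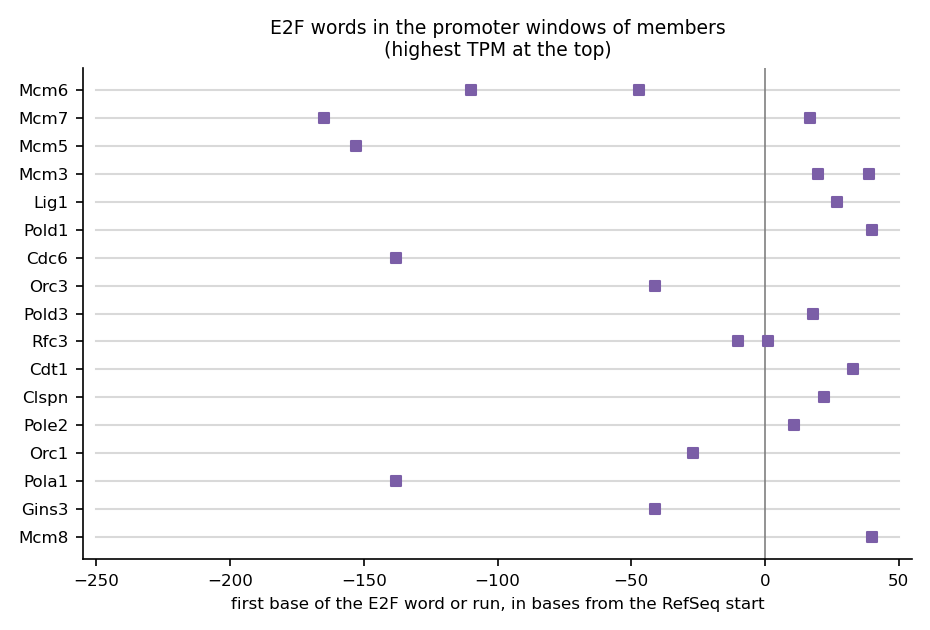
Distance in bases from the RefSeq start to the first base of each E2F word or overlapping run (squares) in the promoter windows of the 17 members that hold one, with the member of highest mean TPM at the top. The words lie on both sides of the start, from 165 bases before it in Mcm7 to base 40 after it in Pold1 and Mcm8, and members with a word run from the top to the bottom of the range of levels.

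Levels of members with and without an E2F word overlapped. Members with a word had a median of 61.2 TPM in replicate 1 and 60.4 TPM in replicate 2, and the 28 members with a window and no word had medians of 65.4 and 61.3 TPM. The word CCAAT, bound by the factor NF-Y, was found in 26 of the 45 members with a window, against 42.3% of the protein-coding genes. TTTGAA, a form of the CHR element of late cell cycle genes, was found in 8 of these 45 members, against 18.5%. Mcm2, Cdc45, Pold2 and Top2a held both CCAAT and TTTGAA and no E2F word. These shares are descriptions of the windows and carry no test.

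For activation of the helicase, the catalytic kinase subunit Cdc7 had 24.7 and 24.5 TPM and its activator Dbf4 35.2 and 38.6 TPM. Dbf4 was above Cdc7 by a log2 ratio of 0.58 ± 0.11 (SD, n = 2). Cdc45, which binds the MCM ring in the active helicase, had 45.5 and 46.8 TPM. The GINS subunits, the third part of that helicase, were uneven. Gins2 had 65.0 and 67.9 TPM and Gins4 63.7 and 65.6 TPM, 2 values that overlapped. Gins1 had 42.1 and 42.7 TPM. Gins3, whose protein is present in 1 copy like the others, had only 11.9 and 11.6 TPM, which put Gins2 at 5.67 times Gins3 (log2 2.50 ± 0.07, SD, n = 2). Over protein-coding transcripts alone this log2 ratio was 0.44 ± 0.01 (SD, n = 2). The MCM2-7 median was 3.85 times the GINS median (log2 1.94 ± 0.07, SD, n = 2), a ratio added after the values were seen, and the log2 ratio was 2.86 over protein-coding transcripts alone.

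In each replicative polymerase the subunit that synthesises DNA was not the most abundant RNA. Pola1, the catalytic subunit of polymerase alpha, had 19.4 and 19.5 TPM and was the lowest of its complex. Its accessory subunit Pola2 had 69.8 and 66.6 TPM, the catalytic primase subunit Prim1 74.5 and 78.0 TPM and the regulatory primase subunit Prim2 41.3 and 41.8 TPM. Prim1 was 3.93 times Pola1 (log2 1.97 ± 0.04, SD, n = 2), and all 4 were apart in both libraries.

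Polymerase delta, which copies the lagging strand, was more even than polymerase alpha-primase. Its accessory subunit Pold2 had 88.4 and 87.6 TPM, the catalytic Pold1 79.1 and 78.7 TPM, and Pold3 61.7 and 60.4 TPM. The range was 1.44-fold (log2 0.53 ± 0.01, SD, n = 2). The small subunit Pold4, not a member, was lower with 10.7 and 11 TPM.

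Polymerase epsilon, which copies the leading strand, was lower. The catalytic subunit Pole had 23.4 and 22.1 TPM and Pole2 26.1 and 26.3 TPM, a range of 1.15-fold (log2 0.20 ± 0.07, SD, n = 2). Its histone-fold subunits, not members, were higher, with 70.6 and 67.4 TPM of Pole3 and 67.7 and 67.8 TPM of Pole4. Of the 3 catalytic subunits, Pold1 was 3.47 times Pole and 4.06 times Pola1, and Pole was 1.17 times Pola1, ratios that were added after the values were seen. Over protein-coding transcripts alone the log2 ratios were 1.26 for Pold1 over Pole, 1.36 for Pold1 over Pola1 and 0.10 ± 0.17 (SD, n = 2) for Pole over Pola1, against 1.79, 2.02 and 0.23 over all transcripts. On that coding scale Pole, with 17.3 and 20.2 TPM, was below Pola1 in replicate 1 and above it in replicate 2. Pola1 had 17.6 and 17.3 TPM there, so these 2 catalytic subunits could not be ordered.

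The sliding clamp Pcna was the highest member, with 296 and 301 TPM. The subunits of its loader, replication factor C, spread widely. Rfc2 had 217 and 219.5 TPM, Rfc4 154 and 166 TPM, Rfc5 74.2 and 69.9 TPM, Rfc3 59.3 and 55.2 TPM, and the large subunit Rfc1 48.7 and 49.5 TPM. Rfc2 was 4.44 times Rfc1 (log2 2.15 ± 0.01, SD, n = 2), although this value rests on transcripts that are not typed protein coding, as described below. Under the older annotation M4 the log2 ratio was 1.37, and Rfc4, with 162 and 173 TPM, stood above Rfc2, with 137 TPM in both libraries. Pcna was 4.14 times the RFC median (log2 2.05 ± 0.08, SD, n = 2), and the log2 ratio was 2.66 over protein-coding transcripts alone.

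Replication protein A, which coats single-stranded DNA, was the most even complex of 3 or more subunits over all M21 transcripts. Rpa1 had 120.1 and 124 TPM, Rpa3 124 and 120.4 TPM, and Rpa2 107 and 103 TPM. Rpa1 and Rpa3 overlapped, and the range was 1.18-fold (log2 0.24 ± 0.04, SD, n = 2). Over protein-coding transcripts alone the log2 range was 0.73, above 0.56 in polymerase delta, and Rpa1 was below Rpa2.

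Among the genes that finish Okazaki fragments, Fen1, the flap endonuclease, was the highest with 168 and 165 TPM. Rnaseh2a, the catalytic subunit of the ribonuclease that removes RNA from DNA, had 126 and 125 TPM. Lig1, the ligase that seals the fragments, had 106 and 109.8 TPM. Dna2, a nuclease for long flaps, was the lowest with 33.8 and 34.0 TPM. Lig1 was 6.53 times Lig3 (log2 2.71 ± 0.03, SD, n = 2), a ligase of repair and mitochondria with 16.5 TPM in both libraries, and Lig4, which joins broken ends, had 1.70 and 1.30 TPM.

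In the fork protection group, partners differed widely. Timeless had 39.0 and 37.8 TPM and its obligate partner Tipin 235 and 225 TPM, so Tipin was 5.99 times Timeless (log2 2.58 ± 0.01, SD, n = 2), the widest range of the 11 complexes over all M21 transcripts. Under the older annotation M4 the log2 range was 2.33, below 2.67 in GINS. Clspn, which links the fork to the checkpoint, had 37.3 and 37.1 TPM. Of this, the 608-base transcript Clspn-207, typed protein coding, took 67.6% and 62.9%. The 26-exon Clspn-201 took 24.6% and 25.4% of TPM but 74.1% of expected counts in both libraries. Wdhd1, which ties polymerase alpha to the helicase, had 48.7 and 49.3 TPM, and Donson, a factor in helicase assembly, 46.1 and 40.5 TPM. Top2a, which untangles DNA in dividing cells, had 209 and 218 TPM and was 6.83 times its paralogue Top2b (log2 2.77 ± 0.02, SD, n = 2), which had 31.0 and 31.6 TPM. Of the chromatin assembly factor that places new histones behind the fork, Chaf1a had 31.6 and 28.7 TPM and Chaf1b 59.7 and 56.0 TPM, a ratio of Chaf1b to Chaf1a of 1.92 (log2 0.94 ± 0.03, SD, n = 2).

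Among 28 neighbouring pairs of subunits in these 11 complexes, 4 overlapped between libraries, namely Mcm5 and Mcm2, Orc2 and Orc4, Gins2 and Gins4, and Rpa1 and Rpa3. The other 24 pairs held their order in both libraries. With 2 libraries, apart means only that the values did not overlap.

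Members differed in which transcripts carried their TPM. In 4 members, Rfc2, Gins2, Rfc1 and Orc4, transcripts typed as protein coding in M21 took under 50% of the gene's TPM in both libraries. These were 7.41% of the members, a share near the 8.52% of protein-coding genes at 10 TPM or more. In 24 members they took at least 90% in both libraries, and 26 lay between. The median protein-coding share was 89.6% in the members and 92.6% in protein-coding genes at 10 TPM or more. At least 2 transcripts held 10% or more of TPM in both libraries in 32 members, a share near the 56.2% of protein-coding genes at 10 TPM or more.

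**Figure D3:**
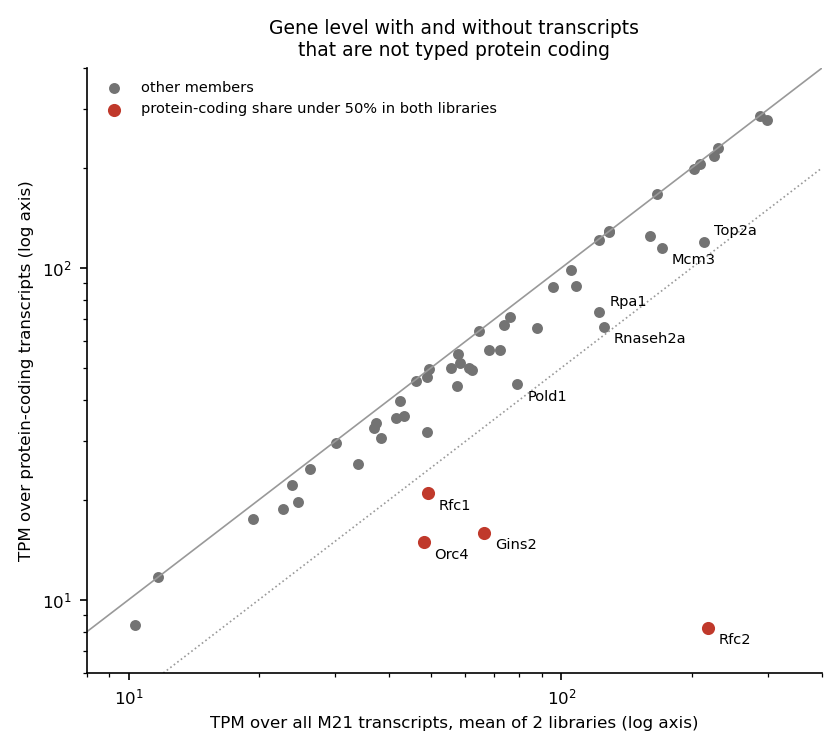
Mean TPM over protein-coding transcripts (y, log axis) against mean TPM over all M21 transcripts (x, log axis) for the 54 members; the solid line is equality and the dotted line a share of 50%. Rfc2 falls farthest from equality, with 218 TPM over all transcripts and 8.24 TPM over protein-coding ones, and Gins2, Rfc1 and Orc4 also lie under the dotted line.

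Rfc2 lies at chr5:134581366-134601805 on the plus strand of mm10. Its only transcript typed protein coding, Rfc2-201, had 8.40 and 8.07 TPM, or 3.87% and 3.68% of the gene. Rfc2-204, typed as a retained intron, had 104.7 TPM in both libraries, or 48.2% and 47.7%. Rfc2-205, of the same type, had 66.5 and 69.0 TPM, or 30.6% and 31.4%. Rfc2-203, typed for nonsense-mediated decay, took 15.4% and 14.4%. By expected counts rather than TPM the protein-coding transcript held 20.9% and 20.0% of the gene, since it is 4995 bases long and the 3 others named are under 1000.

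The 2 most abundant retained-intron transcripts of Rfc2 shared most of their bases with the coding one. Rfc2-204 is 831 bases long, and 90 of these lie outside the exons of Rfc2-201. It starts in the intron before exon 8 and runs to the last exon, of which it holds 480 bases where Rfc2-201 has 3957. Rfc2-205 follows exons 1 to 6 and then reads into the next intron, so that 415 of its 967 bases lie outside those exons. The sequences at the end of exon 6, from the GENCODE M21 transcripts on mm10, show a place where a read can tell Rfc2-205 from Rfc2-201. Capitals mark the side that differs, and reads elsewhere in the 415 bases would tell them apart too.
Rfc2-201, exons 6 and 7 (chr5:134591205-134591219 and chr5:134593189-134593203, plus strand): cagacaaaatcatagAGCCCATCCAGTCCC
Rfc2-205, exon 6 and intron (chr5:134591205-134591234, plus strand): cagacaaaatcatagGTGAGCGGGCAGCCT
The intron side of Rfc2-205 opens with GT, the usual letters at the start of an intron. The M21 gene ends 3477 bases beyond the RefSeq end of Rfc2, and Rfc2-204 ends exactly at the RefSeq end, position 134598328. Which of these transcripts the reads came from was not tested.

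Gins2 lies on the minus strand at chr8:120578633-120589304. Its coding transcript Gins2-201 had 16.2 and 15.7 TPM, or 24.9% and 23.1% of the gene, and Gins2-204, typed as a retained intron, had 43.5 and 45.6 TPM, or 66.9% and 67.1%. Only 16 of the 511 bases of Gins2-204 lie outside the exons of the coding transcript. These 16 bases are shown in capitals beside the exon end that they replace in the coding transcript.
Gins2-201, exons 2 and 3 (chr8:120588725-120588740 and chr8:120586179-120586192, minus strand): GAATGGATGGATGTGGagaaactggaacag
Gins2-204, intron and exon 3 (chr8:120586179-120586208, minus strand): GACGTCTGTGTTTCAGagaaactggaacag
Gins2-204 holds 268 of the 3179 bases of the last exon of Gins2-201, and M21 extends the gene 2633 bases beyond the RefSeq end. By expected counts Gins2-201 held 72.2% and 67.4% of the gene and Gins2-204 21.02% and 21.3%. Gins2 also shares 2758 exon bases with Gse1 on the other strand, and whether counting used strand is not stated, so its level is uncertain.

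In Rfc1, the retained-intron transcript Rfc1-205 covers only the 5′ part of the gene with 485 bases and took 56.8% and 57.2% of TPM but 10.4% of counts in both libraries. Orc4 was led by Orc4-212, a processed transcript of 14 exons with no base outside coding exons of the gene, at 30.4% and 33.1%. Rnaseh2a was also led by a retained-intron transcript, Rnaseh2a-205, at 38.6% and 39.8%, while its coding transcripts still summed to 53.1% and 53.2%. Over all members, 20 transcripts not typed protein coding held 10% or more of their gene in both libraries, in 16 genes. The same share over all genes was not computed. Of the 20 transcripts, 17 were under 1000 bases long, and 10 had under 10% of their bases outside coding exons, with a range from 0% to 42.9%.

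**Figure D4:**
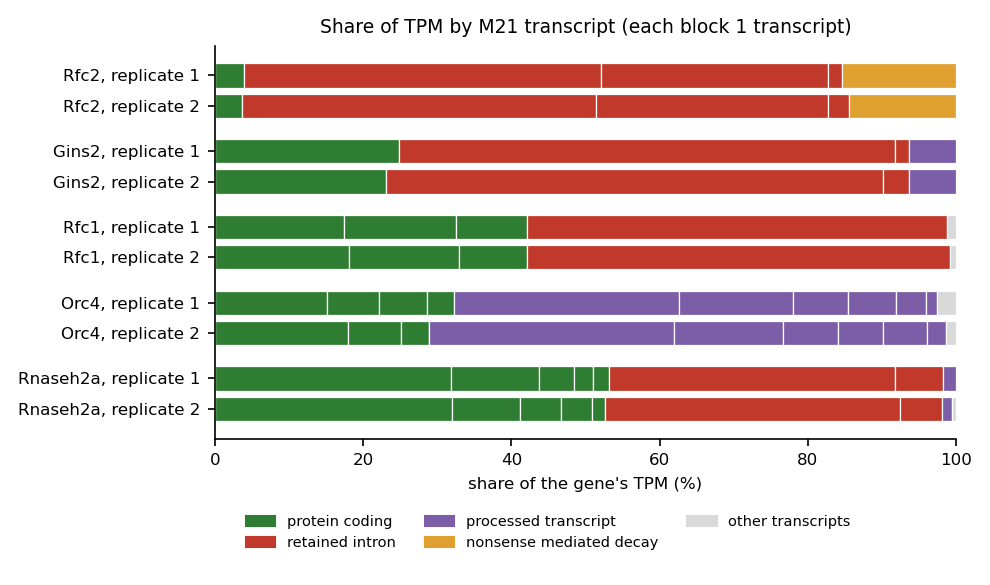
Share of the gene's TPM (percent) held by each M21 transcript, coloured by its type, in replicate 1 and replicate 2 of the 5 members led by a transcript not typed protein coding. The green coding blocks take 3.87% and 3.68% in Rfc2, 24.9% and 23.1% in Gins2, 42.6% and 42.5% in Rfc1, 32.7% and 29.3% in Orc4, and 53.1% and 53.2% in Rnaseh2a.

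Counting only protein-coding transcripts changed which subunit was highest or lowest in 6 of the 11 complexes and widened the range in 9. In replication factor C, Rfc2 moved from the top to the bottom, and the range became 15.1-fold between Rfc4 with 124 and 125 TPM and Rfc2 with 8.40 and 8.07 TPM. Orc4 replaced Orc1 at the bottom of ORC, Gins4 replaced Gins2 at the top of GINS, and Mcm3 replaced Mcm4 at the bottom of the MCM ring. Rpa1 had 73.4 TPM in both libraries on this scale and became the lowest of its complex, and Pold1 became the lowest of polymerase delta with 45.1 and 44.3 TPM. Top2a had 119 and 121 TPM on this scale. The order within polymerase alpha-primase was the same on both scales, as were the tops of the MCM ring, with Mcm6, and of ORC, with Orc6.

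Each library had also been quantified under the older annotation GENCODE M4. Between M21 and M4, 1 member, Rfc2, differed by over 1.5-fold in both libraries, against 5.52% of the 13235 genes at 1 TPM or more under either. Rfc2 had 217 and 219.5 TPM under M21, against 137 TPM in both libraries under M4. Chaf1a came nearest in the other direction, with 31.6 and 28.7 TPM under M21 and 45.3 and 44.6 TPM under M4, or log2 ratios of -0.51 and -0.62 with a pseudocount of 1 TPM. The M21 end of Chaf1a lies 4263 bases beyond its RefSeq end, and the gene shares 4648 exon bases with Ubxn6 on the other strand. Orc6 had 98.0 and 92.9 TPM under M21, against 75.4 and 70.9 TPM under M4, and Mcm5 had 216 and 202 TPM under M21, against 177 and 166 TPM under M4. In all, 45 members were lower and 8 higher under M21 in both libraries, and the members' median log2 ratio of -0.05 lay beside -0.04 over all genes compared.

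Between the libraries the members were alike in size of change. With TMM scaling, log2 ratios of replicate 1 over replicate 2 ran from -0.13 in Dbf4 to 0.13 in Orc5 with a median of 0.00. No member passed 2-fold with an exact 95% binomial interval that excluded equality, and 2.38% of the 17363 genes with a mean count of at least 10 did. By the interval alone 15 members differed, 27.8% of them against 22.6% of all tested genes. Higher in replicate 1 were Orc5, Chaf1b, Orc1, Pole, Mcm5, Donson, Orc6, Pola2, Pold3 and Rfc5, and higher in replicate 2 were Dbf4, Cdc6, Prim1, Lig1 and Top2a. The interval covers counting error only, so it narrows with depth and takes no account of variation between pools. Under spike-in scaling all genes shifted by a median of 0.12 (log2) towards replicate 1, and 47 members then differed by the interval alone, all of them higher in replicate 1, against 42.5% of all tested genes, of which 6783 were higher in replicate 1 and 595 in replicate 2.

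**Figure D5:**
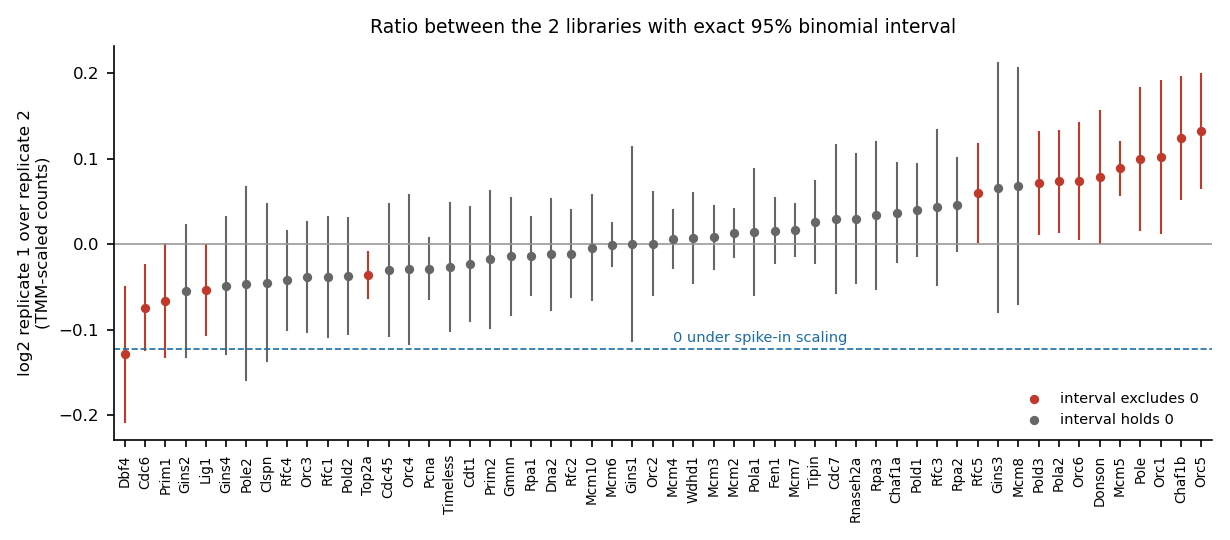
Log2 ratio of replicate 1 over replicate 2 of TMM-scaled expected counts for the 54 members, sorted, with exact 95% binomial intervals; red marks the 15 whose interval excludes 0, and the dashed line shows where 0 lies under spike-in scaling. All ratios lie between -0.13 and 0.13.

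In some members the TPM differed more between libraries than the scaled counts did. Orc2 had 4655 and 4294 expected counts, a log2 ratio of 0.00 after scaling, but 52.1 and 46.8 TPM. Its effective length, which follows from the transcripts to which reads were assigned, was 2734 bases in replicate 1 and 3035 bases in replicate 2. Effective lengths were over 5% apart in 5 members, Orc2, Orc4, Mcm8, Donson and Chaf1a, and in each the length was shorter and the TPM higher in replicate 1. No such count was made over all genes.

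The starts of 10 members lay within 1000 bases of a divergent protein-coding start, 18.5% of the members against 6.79% of protein-coding genes. Divergent starts lie on opposite strands with the genes running away from each other, so genes that overlap at their starts were not counted. The divergent pairs were Orc3 with Rars2, Wdhd1 with Socs4, Mcm8 with Trmt6, Orc1 with Prpf38a, Rpa1 with Smyd4, Rpa3 with Umad1, Pole with Pxmp2, Dbf4 with Slc25a40, Mcm4 with Prkdc, and Gins1 with Abhd12. Rpa3 also had the start of Gm45062 at 277 bases, a gene that averaged 1.2 TPM. The closest starts were those of Orc3 and Rars2, 13 bases apart. Levels within pairs ran from close to far apart. Pole had 22.8 TPM on average beside 21.1 TPM of Pxmp2, and Orc3 had 62.1 TPM beside 42.8 TPM of Rars2. Mcm4 had 129 TPM beside 6.15 TPM of Prkdc, and Rpa1 had 122 TPM beside 6.48 TPM of Smyd4, whereas Orc1 had 23.8 TPM beside 53.7 TPM of Prpf38a and Mcm8 10.4 TPM beside 23.3 TPM of Trmt6.

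Exon bases were shared with another gene in 22 members, 17 of them with a gene at 1 TPM or more. The share of all genes with such overlaps was not computed, so these counts describe the members only. Since the use of strand in counting is not stated, reads in shared bases cannot be assigned to one gene with certainty. Where both genes lie on the same strand, strand would not tell their reads apart. Pole2 shares 245 bases in this way with Gm49384, which averaged 24.3 TPM, so the level of Pole2 is uncertain too. The longest overlaps with genes at 1 TPM or more were those of Chaf1a with Ubxn6, Gins2 with Gse1, Fen1 with the antisense gene Gm10143 (1909 bases) and Orc2 with Nif3l1 (1150 bases). Rnaseh2a shares 177 bases with Prdx2, which averaged 1572 TPM.

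The other genes of the pathway were taken as 54 further nuclear replication genes, with a median of 28.2 TPM in replicate 1 and 28.3 TPM in replicate 2. Of these 45 averaged 10 TPM or more and 12 averaged 100 TPM or more, against 54 and 18 members. Partner subunits of member complexes were Rnaseh2b with 62.6 and 61.6 TPM and Rnaseh2c with 148 and 143 TPM, which join Rnaseh2a, and Rbbp4, the third subunit of chromatin assembly factor 1, with 245 and 256 TPM. Rrm2, a subunit of the enzyme that makes deoxynucleotides, was the highest with 463 and 444 TPM. Gmnc and Mcidas, the relatives of geminin that act in multiciliated cells, had at most 1 count, with 0 and 0.01 TPM of Gmnc and 0 TPM of Mcidas in both libraries. The 7 genes of mitochondrial DNA replication had a median of 25.3 and 23.7 TPM, and the members' median was 2.60 times theirs (log2 1.38 ± 0.09, SD, n = 2).

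Across the 54 members, TPM had a Spearman correlation with effective length of -0.29, and across 11953 protein-coding genes at 1 TPM or more it was -0.33. The genes share the same 2 libraries and are not independent. Pola1, the lowest polymerase subunit among the members, had an effective length of 4863 bases, while Gins3 was low at 2109 bases, close to the members' median of 2089 bases.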

How the data were processed

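Gene and transcript quantifications of 2 polyA RNA-seq libraries were used, which form 1 group. The labels name the mirVana kit for extraction, the SMARTer Ultra Low kit for cDNA and Nextera for tagmentation. The authors deposited expected counts, TPM, posterior mean TPM and FPKM from reads on mm10 under GENCODE M21 or M4. The posterior SD of each count, a signal in counts, was deposited too and was at most 0.588% of a member's gene count. For the aligner, the quantifier and the use of strand, names and versions were not given in the sources used here. TPM is relative to totals in which spike-ins took 4.99% and 5.40% and globins 24.9% and 25.4%.

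Members were matched by symbol, and they and the lists were chosen with earlier results of these data known. Levels are TPM per library, with mean and SD over 2 libraries. Replicates were compared with expected counts rounded to whole numbers, TMM scaling (edgeR 4.0.16), a prior count of 0.5, a minimum mean count of 10 and exact (Clopper-Pearson) 95% binomial intervals computed with scipy 1.17.1. Intervals cover counting error only, and the comparison is of libraries, not conditions. The procedure was tested on simulated counts that held counting error only, so that test could not cover variation between pools. Annotations were compared as log2((TPM + 1)/(TPM + 1)) for genes at 1 TPM or more. Transcript types and exons came from GENCODE M21, and promoter windows and gene ends from RefSeq GRCm38.p6, with windows for 45 of 54 members. All members may be named, and of other lists the highest 2, the lowest 1, those under 1 TPM and the paralogues Top2b, Lig3, Lig4 and Mcm9. Chtf8 matched more than 1 gene and was not used. Protein patterns were planned and not analysed here. The alternatives tried included scaling by DESeq2 1.42.0, by spike-ins or by totals, other filters, folds and priors, M4, posterior mean TPM, FPKM, rescaled TPM, protein-coding transcripts, other shares, shorter windows and each library alone.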

Additional observations from a re-analysis of the deposited data

How the results depend on the processing

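No paired analysis was possible because there is 1 group of 2 libraries. Leaving out either library kept the members' median at 62.7 to 64.3 TPM and all ratios in direction. FPKM gave no median TPM, and its ratios equalled those of TPM within the SD between libraries. The members' median was 91.1 TPM without globins and spike-ins, 65.5 TPM under M4 and 50.25 TPM over protein-coding transcripts. With protein-coding transcripts only, Rfc2 over Rfc1 became -1.34 and Rpa1 over Rpa2 -0.42 (log2). These were the 2 that turned among the pairs of highest and lowest subunit of each complex over all transcripts. Other pairs of subunits also changed order on that scale, such as Mcm3 and Mcm4, Orc4 and Orc1, and Gins2 and Gins4. The median range of the 11 complexes was then 1.32, and the log2 ratios were 2.05 for MCM2-7 over ORC, 2.66 for Pcna over RFC, -1.36 for Cdt1 over Gmnn, 2.22 for Top2a over Top2b, 2.63 for Lig1 over Lig3, 0.89 for Mcm8 over Mcm9 and 1.72 for members over mitochondrial genes. Under M4 they were 1.79 for MCM2-7 over ORC, -1.24 for Cdt1 over Gmnn, 2.35 for Top2a over Top2b and 1.79 for Mcm8 over Mcm9. With posterior mean TPM they were 2.72 for Top2a over Top2b, 2.63 for Lig1 over Lig3 and 0.54 for Mcm8 over Mcm9. Under M4 the range was 0.42 in chromatin assembly factor 1 and 0.28 in polymerase delta, and the cause was not tested. Spike-in scaling gave 47 members apart by the interval alone, with 42.5% of all tested genes. At 2-fold, 0 members and 336 of all genes differed between annotations, and at a share of 20% 16 members had at least 2 transcripts. Among all genes, those past 2-fold and the interval between libraries were 414, and 753 with no filter beyond 1 count, 770 at 1.5-fold and 18 at a mean count of at least 100, with no member among them under these settings. Differences between neighbours in a complex were not tested, and depth limits few members, the least counted having 729 counts.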
